A study of Mus musculus with 12 samples.

Results

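The vagina and the uterus of newborn mice were compared on Illumina bead arrays at postnatal day 3, in 8 of the 12 arrays of the study. The 4 arrays labelled Trp63 cHet vagina were set against the 4 labelled Trp63 cHet uterus, across all probes that the platform annotation names with 1 gene. Female mice of both groups had the genotype Trp63 flox/wt ; Pax2-cre on a mixed background of C57BL/6, S129/5 and CD-1. Each array measured total RNA of 1 pool of 3 mice, so a replicate is a pool. The other 4 arrays held cKO vagina of the same age, with the genotype spelled Trp63 flox/floxt ; Pax2-cre in the labels. They entered the normalization, the filter on dim probes, the choice of probe and the estimate of the spread in the fit. Both organs compared here thus carried 1 floxed and 1 normal Trp63 copy and the Pax2-cre transgene, and no wild type was among the arrays. The cells of each organ in which the Cre recombined the floxed copy, and which exons are floxed, are not given in the sources used here.

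In the mouse, the uterus and the upper vagina arise from the Müllerian duct, while the urogenital sinus contributes to the lower vagina. Position along the duct is marked by Hox genes, with those at one end of each cluster expressed closest to the tail. The uterine epithelium stays a single columnar layer and later forms glands, whereas the vaginal epithelium becomes stratified under p63, the transcription factor that Trp63 encodes and that maintains basal epithelial cells. Mesenchymal signals of the BMP, activin and FGF families induce Trp63 in the vaginal epithelium, and Wnt signals act in the growth of the uterus and its glands.

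Levels are log2 intensities after background correction and quantile normalization, and differences are vagina minus uterus on that scale. In each list of 4 values, replicates 1 to 4 follow in order. Of 11273 genes tested, 2074 were called at an adjusted p under 0.05 by limma with Benjamini-Hochberg adjustment, or 18.4%. Of these, 1053 were higher in the vagina (9.34% of the genes tested) and 1021 were lower (9.06%). Counts of called list members below stand against these shares. At least 2-fold differences were called for 441 genes higher in the vagina (3.91%) and 285 lower (2.53%), and at least 8-fold differences for 30 and 8. With an offset of 50 in the background correction the counts of at least 2-fold differences were 246 higher and 144 lower, and without background correction 178 and 94, so folds of dim genes depend on it. The median difference of all genes was -0.016. Without quantile normalization the split of the calls moved to 1130 higher and 709 lower. In 115 genes called higher no uterus array was above background, and in 53 called lower no vagina array was. These counts are not on equal terms. The filter on dim probes asked for at least 4 of 12 arrays, and the cKO arrays were vagina too. A gene found in the vagina alone thus passed more easily than a gene found in the uterus alone. Passing the filter also largely fixed the direction of such genes. For the genes in both counts the text gives a bound under the main background correction, written as at least N-fold. Other settings can give smaller folds. The lowest log2 differences over the processing alternatives were 2.95 for Pnliprp1, 2.41 for Cxcl15, 1.89 for Fgf10 and 0.51 for Foxa2. Genes above background in only 1 or 2 pools of an organ are described as at background in the others. Of the named genes, Hoxd12, Hoxa13, Trp63, Zfp750 and Upk1a were above background in 3 of 4 uterus pools. Hand2, Scin, Jakmip1, Aldh1a2, Pgr, Bnc1, Mybpc1, Rsad2, Tbx2, Eya4 and Foxf2 were above it in 3 of 4 vagina pools. Hoxb9 was above it in 3 pools of each organ.

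**Figure D1:**
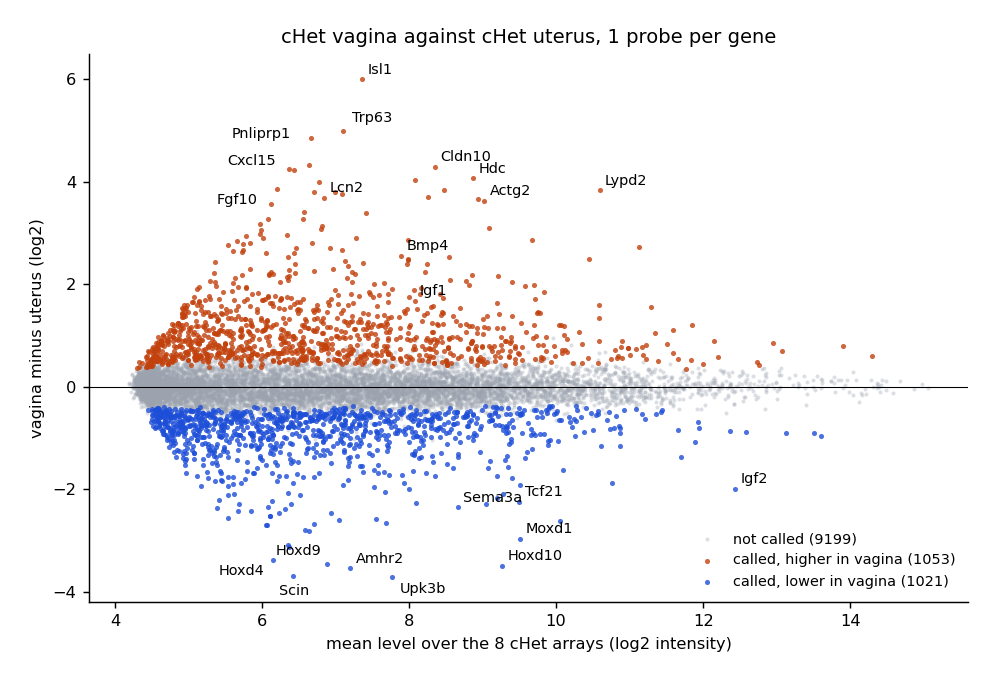
Difference between cHet vagina and cHet uterus (vertical axis, log2) against the mean level over the 8 arrays (horizontal axis, log2 intensity), 1 point per gene. The 1053 called genes above the line reach 6.00 (Isl1), and the 1021 below it reach -3.70 (Upk3b).

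Arrays of 1 organ correlated with each other at 0.975 to 0.991 and with the other organ at 0.943 to 0.960. The first principal component separated the organs, and the next separated replicates 1 and 2 from 3 and 4 in both. No label says what these sets share. All 2074 called genes had the same sign in both, but they were called from both sets together, which largely fixes this in advance. Over all genes tested, the differences in the 2 sets correlated at 0.822. The differences were more than 1 apart between the sets for 19 of the 197 genes named here, whose values in each set or each pool are given. In bulk tissue, a larger share of cells of one kind and more RNA per cell cannot be told apart. Of markers of tissues that dissection could carry along, 3 of 9 ovary genes on the array passed the filter on dim probes, 5 of 7 of oviduct and ciliated cells and 2 of 8 of gut epithelium. Of these 10 genes limma called none, against 18.4% of all genes tested. In 2 the unadjusted p was under 0.05, as in 3234 of the 11273 genes tested. The median differences were -0.39 for ovary, -0.046 for oviduct and ciliated cells and -0.028 for gut epithelium. So few genes cannot show whether these tissues were carried along. Urothelial markers differed between the organs.

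Isl1, a LIM homeobox transcription factor, had the largest difference of all genes. Its level was 9.83, 10.004, 10.88 and 10.74 in the vagina and 4.19, 4.20, 4.50 and 4.56 in the uterus. Every vagina pool lay far above every uterus pool, and 3 of the 4 uterus pools were at background. The difference was 6.00 (SE 0.25), or 64.2-fold higher in the vagina (limma adjusted p = 1.81e-10). With uterus pools at background this fold depends on the correction, and the difference was 4.63 with an offset of 50 and 4.08 without background correction. Trp63 itself stood at 9.75, 9.57, 9.36 and 9.71 in the vagina and 4.55, 4.53, 4.61 and 4.76 in the uterus. These groups were also far apart and varied little within, with a difference of 4.98 (SE 0.17) and an adjusted p of 3.30e-11. Runx1, a Runt-domain transcription factor, was at background in 3 uterus pools and 6.32-fold higher in the vagina (1.26 on the log2 scale without background correction), with differences of 3.35 among replicates 1 and 2 but 1.97 among 3 and 4.

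The genes with the largest differences in each direction included Isl1 and Col17a1, the hemidesmosomal collagen XVII, higher in the vagina, and Hoxd10 and Amhr2 higher in the uterus. Their promoters, 250 bases before to 50 after the gene start in RefSeq (GRCm38.p6), are shown because each gene is among the 15 called with the largest difference in its direction. Capitals mark 3 motifs searched on both strands: the CAAT box (letters CCAAT, or ATTGG where it lies on the other strand), the TATA box (letters TATAAA) and the GC box (letters GGGCGG). The fourth motif searched, that of AP-1 (TGANTCA), was in none of these 4 windows. Isl1 lies at chr13:116309639-116309938 (minus strand), Col17a1 at chr19:47691993-47692292 (minus strand), Hoxd10 at chr2:74691641-74691940 (plus strand) and Amhr2 at chr15:102445117-102445416 (plus strand).
Isl1: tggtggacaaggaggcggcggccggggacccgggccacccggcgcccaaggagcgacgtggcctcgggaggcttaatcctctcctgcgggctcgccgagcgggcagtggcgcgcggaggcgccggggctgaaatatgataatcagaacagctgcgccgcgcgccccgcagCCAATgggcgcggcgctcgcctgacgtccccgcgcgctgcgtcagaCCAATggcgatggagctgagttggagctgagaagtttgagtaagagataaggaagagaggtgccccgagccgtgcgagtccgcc
Col17a1: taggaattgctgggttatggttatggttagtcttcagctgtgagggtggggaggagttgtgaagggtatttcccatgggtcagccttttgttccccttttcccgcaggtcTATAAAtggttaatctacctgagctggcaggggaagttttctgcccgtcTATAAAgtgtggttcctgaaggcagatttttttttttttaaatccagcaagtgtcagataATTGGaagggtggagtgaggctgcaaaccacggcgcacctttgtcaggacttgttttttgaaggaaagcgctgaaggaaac
Hoxd10: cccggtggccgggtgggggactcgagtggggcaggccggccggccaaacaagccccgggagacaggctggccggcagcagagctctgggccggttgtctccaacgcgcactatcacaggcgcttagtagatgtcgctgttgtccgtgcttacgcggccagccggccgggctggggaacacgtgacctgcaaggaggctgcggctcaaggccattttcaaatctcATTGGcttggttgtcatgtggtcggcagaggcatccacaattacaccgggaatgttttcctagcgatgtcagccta
Amhr2: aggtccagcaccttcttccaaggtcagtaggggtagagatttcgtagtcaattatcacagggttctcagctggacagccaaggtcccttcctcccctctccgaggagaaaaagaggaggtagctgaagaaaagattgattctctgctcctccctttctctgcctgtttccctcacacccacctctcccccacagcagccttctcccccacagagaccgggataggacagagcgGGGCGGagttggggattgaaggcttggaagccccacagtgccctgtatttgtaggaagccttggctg
The GC content of these windows was 69% for Isl1, 46.3% for Col17a1, 62.7% for Hoxd10 and 55.3% for Amhr2. The TATA box letters were in 9.93% of the 413 windows of genes at least 2-fold higher in the vagina, in 11.2% of the 269 of genes at least 2-fold lower, and in 7.53% of the 11624 of all genes tested. The GC box letters were in 53.5% of the windows of genes higher in the vagina, 48.7% of those lower and 61.6% of all, and the CAAT box letters in 32.2%, 30.5% and 37.6% of the same 3 sets. The AP-1 letters were in 7.99% of the windows of genes higher in the vagina, 8.18% of those lower and 5.22% of all genes tested. Over all 32851 windows available, of genes tested or not, the shares were 7.81% for AP-1 and 13.6% for TATA letters. They were 35.7% for GC box and 37.4% for CAAT box letters. Only 301 of the 441 higher genes and 206 of the 285 lower genes had a window. Differences between these shares were not tested. A match is a run of letters and not a binding site.

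Hox genes split by cluster and by position. All 12 tested genes of the Hoxa, Hoxc and Hoxd clusters with numbers up to 11 were lower in the vagina, from -0.86 (Hoxa7) to -3.49 (Hoxd10). Between these lay Hoxa5 (-2.20), Hoxc6 (-2.36) and Hoxd8 (-2.59), and Hoxa9 with differences of -0.73 among replicates 1 and 2 but -1.74 among 3 and 4. Hoxa5 and Hoxc6 were at background in 3 of the 4 vagina pools and Hoxa9 in 2. Hoxc9, Hoxc10 and Hoxd3 were above background in no vagina pool, at least 1.81-fold, 1.99-fold and 2.54-fold lower there. Hoxc10 read 6.11, 5.91, 4.77 and 5.04 in the uterus pools. Hoxa5, Hoxc6, Hoxc9, Hoxc10 and Hoxd3 would not have passed the filter on dim probes without the 4 uterus pools. The filter thus largely fixed their direction in advance, and the count of 12 rests partly on them. All 3 tested genes of groups 12 and 13, which specify the most caudal structures, were higher in the vagina. Hoxd10 stood at 7.42, 7.40, 7.70 and 7.56 in the vagina and 11.11, 10.87, 11.18 and 10.89 in the uterus, a difference of -3.49 (SE 0.15) with an adjusted p of 1.81e-10. Its groups did not overlap, and the pools of each organ lay within a narrow range. Hoxd9 was lower by a difference of -3.46 (SE 0.23) and Hoxd4 by -3.38 (SE 0.15), and Hoxd4 was at background in 3 of 4 vagina pools. Hoxa11, which patterns the uterus, read 4.95, 5.07, 4.60 and 4.76 in the vagina and 7.27, 7.11, 7.35 and 7.77 in the uterus. The uterus pools were above all vagina pools, and the difference was -2.53 (SE 0.23).

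Genes of the Hoxb cluster went the other way. Of 7 tested, 6 were called higher in the vagina, namely Hoxb2 (1.34), Hoxb3 (0.90), Hoxb4 (1.14), Hoxb5 (1.28), Hoxb6 (1.29) and Hoxb7 (1.25), and Hoxb9 was not called (0.0021, adjusted p = 0.996). Hoxb6 was not called without vagina replicate 1 or 2 or uterus replicate 3 or 4, adjusted p up to 0.0805. Hoxb3 was at background in 2 uterus pools, and its other probes gave 0.60 and 0.14. Hoxb7 read 10.16, 10.52, 10.06 and 9.84 in the vagina and 8.61, 9.01, 9.05 and 8.90 in the uterus, and every vagina pool was above every uterus pool. At the caudal end, Hoxd12 stood at 6.06, 6.35, 6.24 and 6.20 in the vagina and 4.77, 5.53, 4.46 and 4.72 in the uterus. Vagina values were close together and all above the uterus values, with a difference of 1.34 (SE 0.20, adjusted p = 0.000124). Hoxa13, the gene that marks the vaginal end of the duct, had a smaller difference of 0.84 (SE 0.18, adjusted p = 0.0031), or 0.46 among replicates 1 and 2 but 1.21 among 3 and 4, and its other probe gave 0.22. Hoxd13, at background in 3 uterus pools and 1 vagina pool, differed by 0.69 (SE 0.20), and its adjusted p of 0.0196 rose above 0.05 when vagina replicate 2 (0.0639), vagina replicate 3 (0.0544) or uterus replicate 2 (0.0504) was left out. Hoxa10 was under the filter on dim probes. Hox genes other than those of groups 9 to 13 were named after their values were seen.

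**Figure D2:**
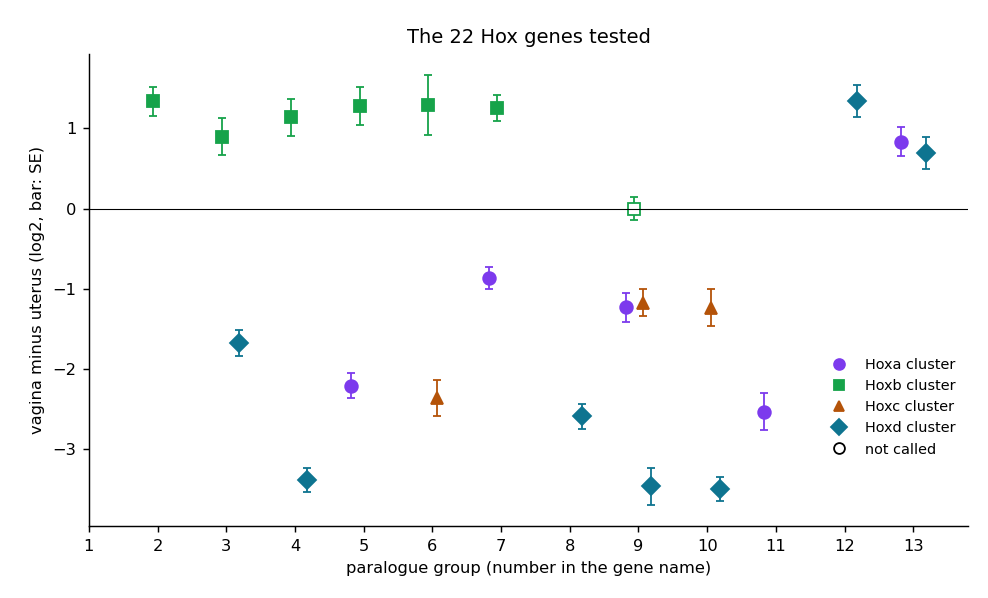
Difference between cHet vagina and cHet uterus (vertical axis, log2, with SE) for the 22 tested Hox genes by number (horizontal axis) and cluster (marker), open where not called. The 12 Hoxa, Hoxc and Hoxd genes up to number 11 lie below the line, the 6 called Hoxb genes and the 3 genes of groups 12 and 13 above it.

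Other regulators of body position and of the Müllerian duct moved in both directions. Of 15 tested caudal patterning genes, 5 were called higher in the vagina and 3 lower (median 0.31, and 0.017 to 0.48 over the processing alternatives, as for later medians). Foxq1, a forkhead factor outside the lists of caudal patterning genes and Müllerian regulators, is given for its large difference. It read 8.62, 8.96, 7.55 and 7.40 in the vagina and 4.12, 4.14, 4.67 and 4.16 in the uterus. It was at background in 3 uterus pools and above all of them in each vagina pool, with differences of 4.66 among replicates 1 and 2 but 3.06 among 3 and 4. Eya1, a transcriptional coactivator, was at least 1.96-fold higher in the vagina, and Dlx6, a distal-less homeobox gene, was 2.17-fold higher. Msx1, a homeobox gene of mesenchyme and uterine epithelium, read 7.25, 7.85, 6.38 and 6.54 in the vagina and 9.57, 8.72, 8.87 and 8.82 in the uterus. Despite the spread among vagina pools the groups were apart, with a difference of -1.99 (SE 0.34, adjusted p = 0.000432), and Tbx3, a T-box factor of limb and genital development, differed by -1.13. Tbx2, its close relative, differed by -1.52 among replicates 1 and 2 but -0.40 among 3 and 4, and its other probe gave -0.13. Isl2, of the Isl1 family, and Eya4, of the Eya1 family, were above background in no uterus pool, at least 1.27-fold and 1.47-fold higher in the vagina (Eya4 not called without vagina replicate 3, adjusted p = 0.0563).

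Of 14 tested Müllerian regulators, 4 were higher in the vagina and 5 lower. Amhr2, the receptor through which anti-Müllerian hormone acts, read 5.52, 5.04, 5.52 and 5.66 in the vagina and 8.68, 8.90, 9.15 and 9.14 in the uterus. The difference was -3.53 (SE 0.17), or 11.6-fold lower in the vagina (adjusted p = 7.14e-10), and its other probes gave -1.40 and -1.25. Tcf21, a bHLH factor of visceral mesenchyme, read 8.01, 8.34, 8.59 and 8.58 in the vagina and 10.50, 10.53, 10.73 and 10.73 in the uterus, with the uterus pools nearly identical and well above the vagina pools. Gata6, a zinc finger factor of mesoderm and endoderm, differed by -2.46 (SE 0.22), and Hand2, a stromal mediator of progesterone action in the adult uterus, by -1.15 (SE 0.19). Pax8, a duct epithelial factor, was higher in the vagina by 0.96 (SE 0.19), and Lhx1, needed to form the duct, was at least 1.49-fold higher. Osr1, a zinc finger factor of urogenital mesoderm, and Foxf2, a forkhead factor of mesenchyme, were above background in no uterus pool, at least 1.37-fold and 1.06-fold higher (Foxf2 not called without vagina replicate 2 or 3 or uterus replicate 1, 2, 3 or 4 or array 3 or 4 of the cKO, adjusted p up to 0.138). Nr2f2, a nuclear receptor of stroma, was lower in the vagina (-1.13).

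Of 8 tested factors of the uterine epithelium, 5 were higher in the vagina and 2 lower. Foxa2, a factor of uterine glands in older mice, was above background in all 4 vagina pools and in no uterus pool, at least 2.19-fold higher (adjusted p = 1.75e-05). Sox9 differed by 1.26 and Klf5, a zinc finger factor of epithelia, by 1.54. Sox17, an endoderm and uterine gland factor, differed by -0.64 (SE 0.15), and Lgr5, a Wnt target of epithelial progenitors, by -1.03 (SE 0.19). Wnt7a, an epithelial signal that patterns the duct, read 7.58, 7.95, 7.60 and 7.05 in the vagina and 7.60, 7.62, 7.92 and 7.47 in the uterus. Its groups overlapped, and the difference of -0.11 (SE 0.21) was not called (adjusted p = 0.804).

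**Figure D3:**
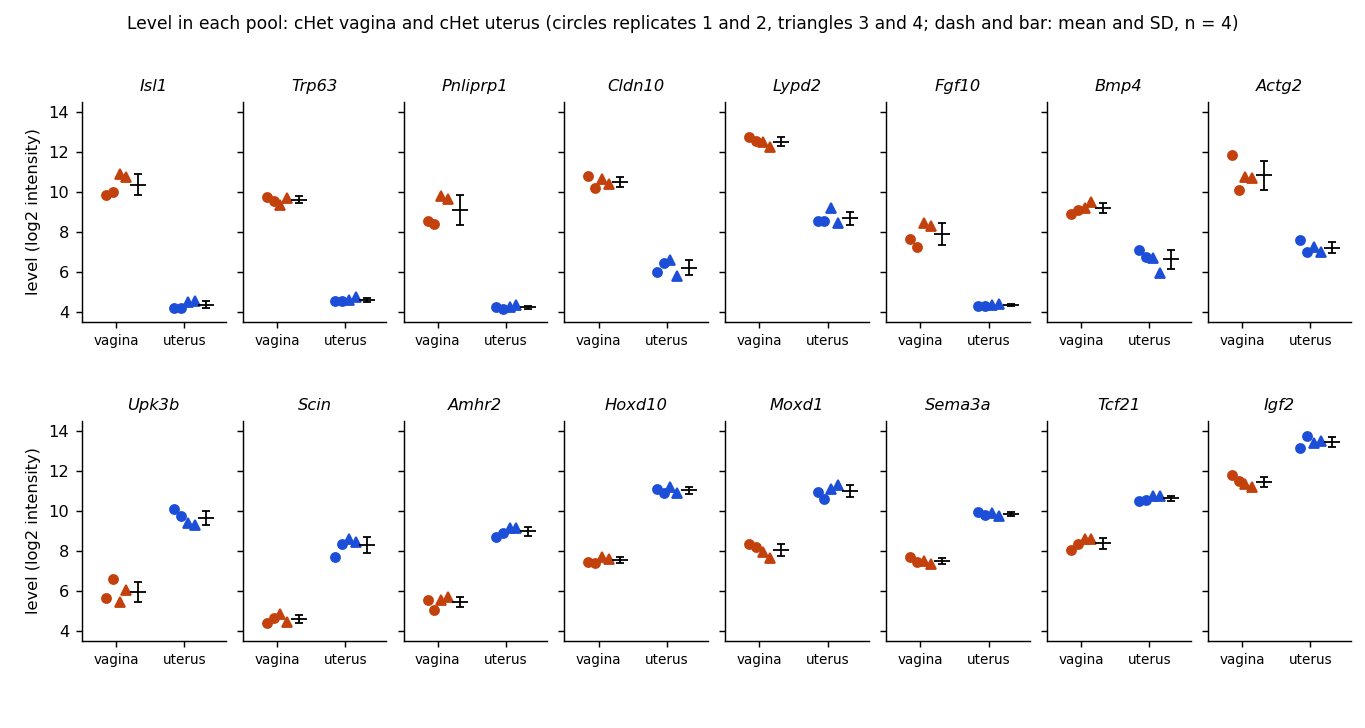
Level of 16 genes in each pool (vertical axes, log2 intensity), vagina left and uterus right, with replicates 1 and 2 as circles, 3 and 4 as triangles, and the mean with SD of 4 pools. In the upper row all vagina pools lie above all uterus pools, and in the lower row below them.

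Among the genes most strongly lower in the vagina, Upk3b, a uroplakin also found in mesothelium, read 5.62, 6.58, 5.43 and 6.04 in the vagina and 10.09, 9.72, 9.41 and 9.28 in the uterus. Scin, the actin-severing protein scinderin, read 4.40, 4.61, 4.84 and 4.44 in the vagina and 7.70, 8.34, 8.60 and 8.46 in the uterus. For both genes the organs were far apart, each 13-fold lower in the vagina (adjusted p = 1.46e-08 and 7.55e-10). Moxd1, a copper-dependent monooxygenase, read 8.34, 8.20, 7.93 and 7.65 in the vagina and 10.94, 10.61, 11.11 and 11.31 in the uterus, and its probes gave -2.96 and -2.63. Lower vagina levels were also called for Serpinb6b, a protease inhibitor (-3.09), Srgn, the granule proteoglycan serglycin (-2.79), Cd83, a surface protein of activated immune cells (-2.81), and Ecm1, an extracellular matrix protein (-2.66). Cyp1b1, a cytochrome P450 that oxidizes estrogens, was at background in 2 of the 4 vagina pools, with differences of -2.12 among replicates 1 and 2 but -3.28 among 3 and 4. Lbhd2 (-3.13), Jakmip1 (-2.70) and Ildr2 (-2.68) were lower as well, each with groups that did not overlap.

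Among the genes most strongly higher in the vagina, Pnliprp1, a relative of pancreatic lipase, read 8.52, 8.41, 9.81 and 9.65 in the vagina and 4.25, 4.14, 4.25 and 4.32 in the uterus. No uterus pool was above background, so the vagina was at least 24.4-fold higher, and vagina replicates 3 and 4 lay above 1 and 2. Cxcl15, an epithelial chemokine, was also above background in no uterus pool and at least 16-fold higher. Cldn10, a tight junction claudin, read 10.80, 10.20, 10.63 and 10.38 in the vagina and 6.02, 6.45, 6.61 and 5.77 in the uterus, and its 3 probes gave 4.29, 3.88 and 3.52. Lypd2, a Ly6 family surface protein, was high in every vagina pool at 12.77, 12.54, 12.48 and 12.25, against 8.55, 8.56, 9.17 and 8.42 in the uterus. Hdc, which makes histamine from histidine, differed by 4.07 (SE 0.37), or by 3.10 among replicates 1 and 2 but 5.04 among 3 and 4. Padi1, which converts arginine to citrulline in epithelial proteins, differed by 4.37 among replicates 1 and 2 but 3.30 among 3 and 4. Serpinb11, a serpin of epithelia at background in 3 uterus pools, differed by 4.88 among replicates 1 and 2 but 3.59 among 3 and 4, and Car12, a carbonic anhydrase, by 3.81.

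Epithelial gene lists were mostly higher in the vagina. Of 21 tested epithelial regulators, 20 were called higher and none lower, with a median of 1.59 (1.03 to 1.81) against -0.016 for all genes. Zfp750, a driver of epidermal differentiation, differed by 3.57 among replicates 1 and 2 but 2.26 among 3 and 4. Elf5, an ETS factor of epithelia (2.21), Esrp2, an epithelial splicing regulator (2.16), and Prom2, a membrane glycoprotein (2.39, with 0.08 by its other probe), also rose. The list of junction genes had 13 of 17 higher and 1 lower (median 1.14, 0.52 to 1.29), among them Cldn4 (2.07), Cldn23 (1.66) and the polarity gene Llgl2 (1.66). The 1 lower gene was Tjp1, the junction scaffold ZO-1, at 6.23, 6.52, 7.04 and 7.03 in the vagina and 7.59, 6.98, 7.68 and 7.75 in the uterus. Its groups overlapped, and without quantile normalization it was not called (-0.71, adjusted p = 0.0722).

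Keratins of simple epithelia were higher in the vagina in 4 of 4 tested genes. Krt8 read 12.22, 12.68, 11.83 and 11.84 in the vagina and 11.06, 10.92, 11.13 and 11.03 in the uterus, with all vagina pools above all uterus pools and a difference of 1.11 (SE 0.19). Krt18, its partner, differed by 1.01, Krt19 by 1.15 and Krt7 by 1.05. Keratins of stratified epithelia had 5 of 10 higher and 1 lower. Krt14, a basal cell keratin, read 11.25, 11.64, 10.20 and 10.01 in the vagina and 7.53, 7.88, 6.47 and 6.55 in the uterus, so that both organs were well above background and the vagina was 12.7-fold higher (adjusted p = 0.00012). Krt15, also basal, differed by 4.69 among replicates 1 and 2 but 3.38 among 3 and 4. Krt5, the partner of Krt14, was above background in all 4 vagina pools and in no uterus pool, at least 2.45-fold higher, with vagina levels of 6.07, 6.64, 4.88 and 5.54. Krt17 differed by 2.72, Krt4 was at least 1.38-fold higher, and the 1 lower keratin was Krt23 (-0.73, not called without vagina replicate 3 or 4 or uterus replicate 1 or 2, adjusted p up to 0.0925).

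Genes that anchor basal cells were higher in 9 of 11 tested, and none was lower (median 0.98, 0.86 to 1.21). Col17a1 read 8.94, 8.86, 8.59 and 8.72 in the vagina and 4.51, 4.92, 5.06 and 4.63 in the uterus. The groups were far apart, with a difference of 4.00 (SE 0.34) and 1.79 and 3.69 by its other probes. Lad1, an anchoring filament protein (2.19), and the integrin genes Itgb4 (1.64) and Itga6 (1.47) were higher too. Of 4 tested desmosome genes, 3 were higher, namely Dsg2 (1.85, with 0.10 to 0.85 by its other probes), Pkp1 (1.23, at background in 3 uterus pools) and Pkp2 (0.92). Of 18 squamous genes, 12 were higher and 2 lower (median 0.99, 0.46 to 1.17), led by the annexin gene Anxa8 (3.18), the connexin gene Gjb2 (2.80) and Dapl1 (2.80). Anxa8 and Dapl1 were at background in 3 uterus pools. The 2 lower squamous genes were Lor, the cornified envelope protein loricrin (-0.78, not called without vagina replicate 1, 3 or 4 or uterus replicate 2 or 4, adjusted p up to 0.0801), and the kallikrein gene Klk10 (-0.86).

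Mir205hg, the transcript that holds the epithelial microRNA miR-205, was measured by 1 probe and was named after its value was seen. Its level was 7.86, 7.98, 7.24 and 6.98 in the vagina and 4.84, 4.21, 4.59 and 4.21 in the uterus. The vagina pools were all higher and 2 uterus pools were at background, with a difference of 3.05 (SE 0.24, adjusted p = 1.41e-07). The array measured the host transcript and not the mature microRNA. The mature sequence in RefSeq (GRCm38.p6, chr1:193507503-193507524, minus strand) is shown with its seed, bases 2 to 8, in capitals.
mmu-miR-205-5p: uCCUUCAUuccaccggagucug

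Secreted and defence proteins were higher in the vagina in 10 of 13 tested genes, with none lower (median 1.20, 0.61 to 1.69). Lcn2, the iron-binding defence protein lipocalin 2, read 8.32, 9.06, 8.64 and 8.72 in the vagina and 4.54, 4.90, 5.57 and 4.97 in the uterus. Tspan8, a tetraspanin of secretory epithelia, read 10.14, 9.89, 10.26 and 10.17 in the vagina and 7.27, 6.22, 6.23 and 5.92 in the uterus. Both had groups far apart, at 12.9-fold and 13-fold higher in the vagina. Detoxification genes split, with 10 of 19 higher and 6 lower. Cbr2, a carbonyl reductase (3.39), and Gsta3, a glutathione transferase (2.28), were higher, whereas Cyp7b1, an oxysterol hydroxylase (-1.65), and Nqo1, a quinone reductase (-1.48), were lower.

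**Figure D4:**
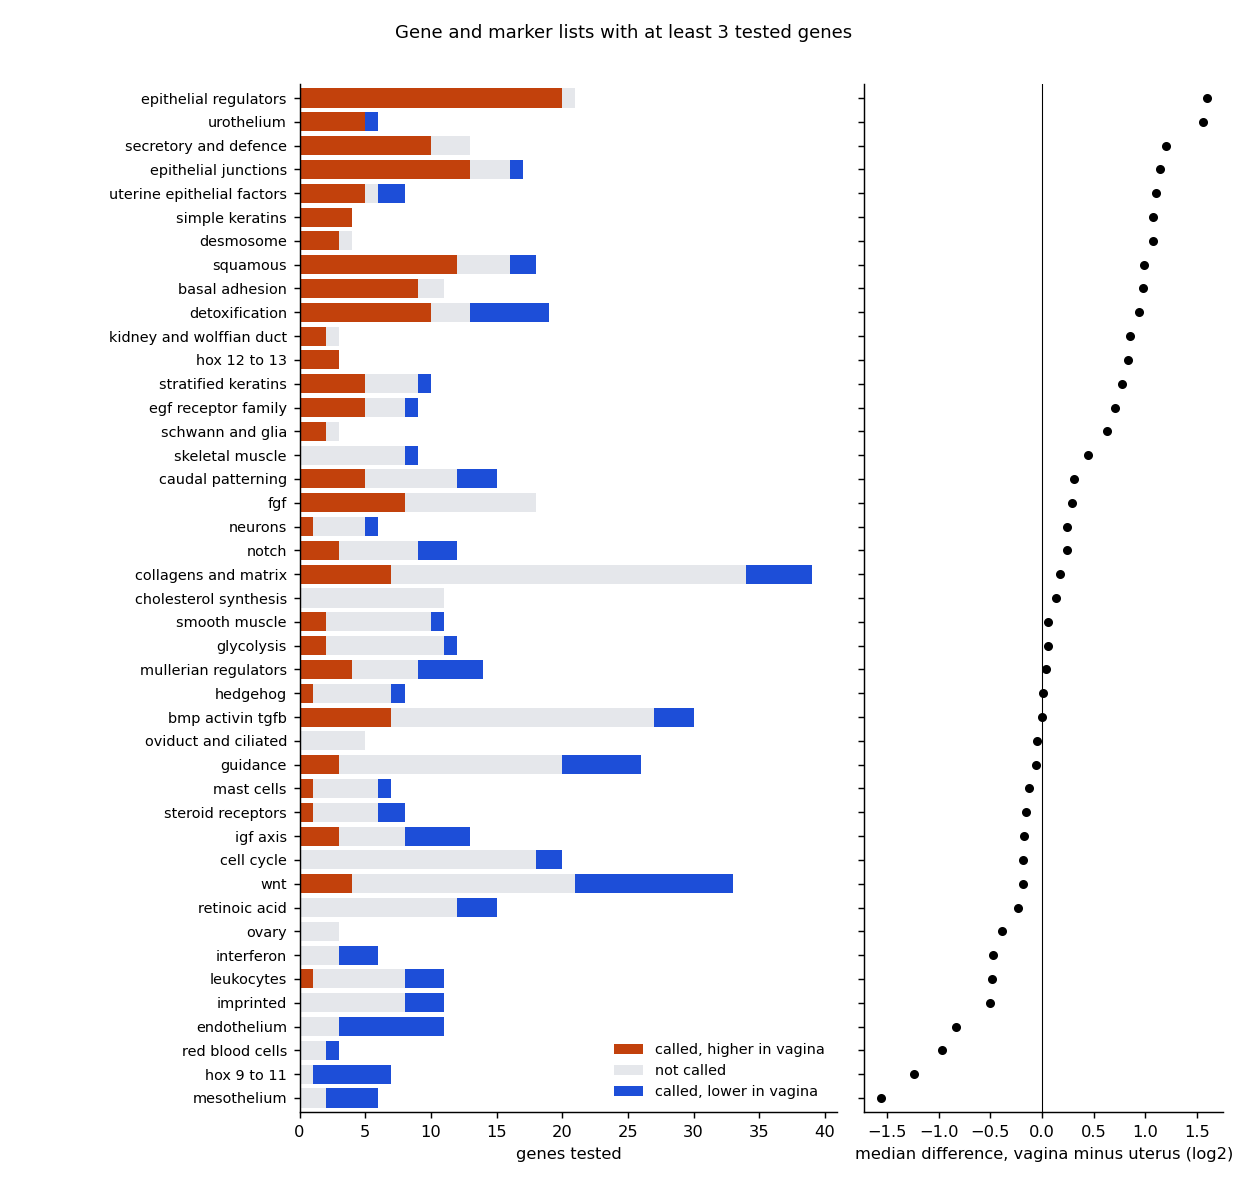
Number of tested genes per list called higher in cHet vagina, not called, or called lower (left, horizontal axis), and the median difference of the list (right, log2), for lists with at least 3 tested genes. Epithelial regulators are at the top with 20 of 21 higher, and mesothelial markers at the bottom with 4 of 6 lower.

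FGF signalling genes were called higher in 8 of 18 tested and lower in none (median 0.29, 0.14 to 0.58). Fgf10, a mesenchymal ligand that acts on epithelium, read 7.64, 7.26, 8.44 and 8.27 in the vagina and 4.28, 4.31, 4.36 and 4.39 in the uterus. No uterus pool was above background, and the vagina was at least 10.6-fold higher (adjusted p = 1.46e-08). Its other probes gave 3.11 and 0.43. Fgf7, a ligand of the same receptor, read 6.89, 6.15, 7.08 and 6.82 in the vagina and 5.07, 4.73, 4.93 and 4.53 in the uterus, with no overlap and a difference of 1.92 (SE 0.21). Etv4, a transcription factor induced by FGF signals, differed by 1.30 (SE 0.26).

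Of 30 tested genes of the BMP, activin and TGF-beta pathways, 7 were higher and 3 lower (median -0.0035, -0.038 to 0.22). Bmp4, a mesenchymal ligand, read 8.90, 9.10, 9.19 and 9.50 in the vagina and 7.10, 6.74, 6.69 and 5.94 in the uterus. The difference was 2.55 (SE 0.20), or 5.87-fold, with 2.08 among replicates 1 and 2 but 3.03 among 3 and 4, and 0.99 by its other probe. Inhba, the activin A subunit, read 7.97, 8.31, 8.25 and 8.48 in the vagina and 6.39, 6.26, 6.12 and 6.04 in the uterus. Its groups were also apart, at 4.15-fold (adjusted p = 1.19e-06). Bmp7, a further ligand, differed by 1.19, and Fst, which binds and blocks activin, by 1.09, with 2 uterus pools at background. Id3 and Id4, which are induced by BMP signals in many cells, were lower in the vagina, at -1.09 (SE 0.21) and -0.96 (SE 0.15).

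**Figure D5:**
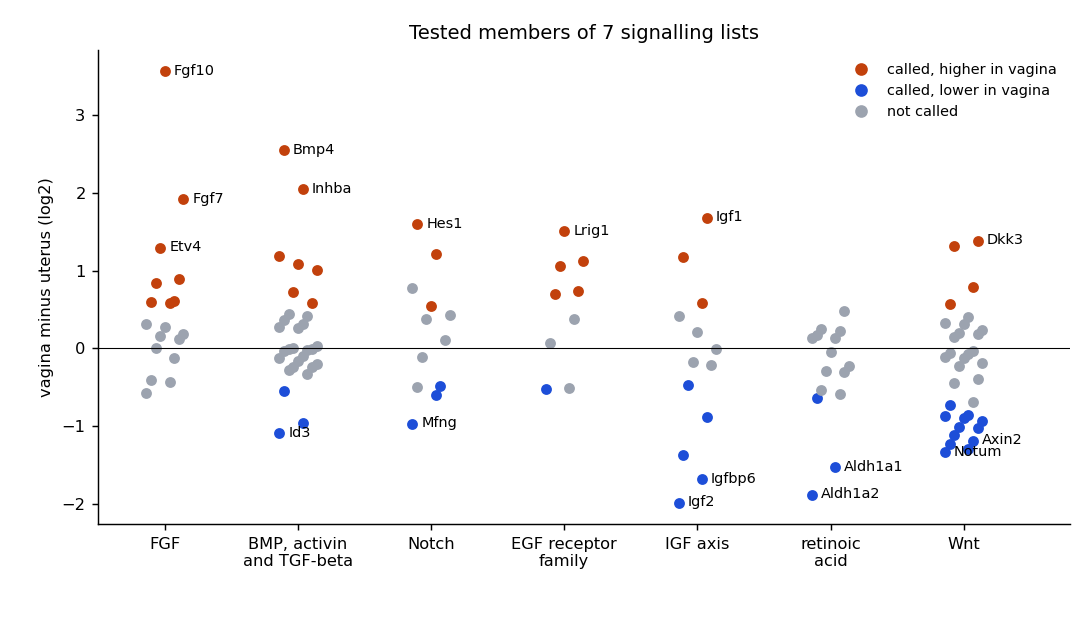
Difference between cHet vagina and cHet uterus (vertical axis, log2) for every tested member of 7 signalling lists, 1 point per gene, coloured by call. Of the FGF genes 8 of 18 are called higher and none lower, whereas 12 of 33 Wnt genes and 5 of 13 IGF genes are called lower.

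Wnt genes were lower in the vagina in 12 of 33 tested and higher in 4 (median -0.19, -0.29 to -0.059, and -0.12 without uterus replicate 1 or uterus replicate 3). Axin2, a feedback inhibitor used as a readout of Wnt signals, read 6.55, 6.81, 6.60 and 6.68 in the vagina and 7.87, 8.03, 7.60 and 7.89 in the uterus. The groups were apart and the difference was -1.19 (SE 0.16, adjusted p = 3.95e-05). Notum, a secreted Wnt deacylase (-1.34), and Rspo3, a ligand that enhances Wnt signals (-1.29), were lower. Nkd1, an inhibitor that Wnt induces, differed by -1.23 (SE 0.31), with -0.16 by its other probe. Dkk3, a secreted dickkopf family protein (1.39), and the ligands Wnt7b (1.32, with 0.18 by its other probe) and Wnt10a (0.79, at background in 3 uterus pools) were higher.

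The IGF axis had 3 of 13 genes higher and 5 lower. Igf2, the fetal growth factor, read 11.77, 11.47, 11.32 and 11.19 in the vagina and 13.11, 13.72, 13.40 and 13.47 in the uterus. It was 3.96-fold lower in the vagina, with no overlap (adjusted p = 3.71e-06). Igf1, which acts on the same receptor, went the other way at 8.80, 8.02, 9.46 and 9.39 in the vagina and 6.74, 7.65, 7.27 and 7.27 in the uterus. Vagina pools varied more, but all were above the uterus pools, with a difference of 1.68 (SE 0.30, adjusted p = 0.000673). The binding proteins Igfbp6 (-1.68), Igfbp2 (-1.38) and Igfbp5 (-0.88) and the clearance receptor Igf2r (-0.48) were lower. Igf2bp1 (0.58, with -0.0022 by the lowest of its other probes) was higher, and Igf2bp3, an RNA-binding protein of Igf2 mRNA, was too (1.17, with -0.36 by the lowest of its other probes). Of 11 tested imprinted genes, of which Igf2 is one, 3 were lower and none higher (median -0.51, -0.59 to -0.30), the others being the cell cycle inhibitor Cdkn1c (-0.86) and Mest (-0.84).

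Notch genes were balanced, with 3 of 12 higher and 3 lower. The target genes Hes1 (1.60, SE 0.21) and Hey1 (1.22, SE 0.22) were higher in the vagina, and Mfng, which modifies Notch receptors, was lower (-0.97, SE 0.16). The target genes Heyl (-0.48, not called without vagina replicate 2 or 4 or uterus replicate 4, adjusted p up to 0.0724) and Hey2 (-0.60, not called without vagina replicate 2 or 3, adjusted p up to 0.0621) were lower as well, and Hey2 was at background in 3 vagina pools and 1 uterus pool. Retinoic acid genes had 3 of 15 lower and none higher. Aldh1a2, which makes retinoic acid, read 4.58, 4.999, 4.42 and 4.66 in the vagina and 6.80, 6.95, 6.33 and 6.13 in the uterus. All vagina pools were lower, by a difference of -1.89 (SE 0.19). Aldh1a2 is also a mesothelial marker, and those were lower in 4 of 6 genes. Aldh1a1, of the same family, was above background in no vagina pool and at least 2.38-fold lower there. Aldh1a3, the third enzyme of this family, differed by -0.63, with -0.19 by its other probe. Of 9 tested genes of the EGF receptor family, 5 were higher and 1 lower, including Lrig1, an inhibitor of the receptors (1.51), the ligand Btc (1.12), the feedback inhibitor Errfi1 (1.06) and the receptors Egfr (0.74, with 0.16 to 0.52 by its other probes) and Erbb2 (0.71). The lower one was the ligand Hbegf (-0.53, not called without vagina replicate 1 or 3 or uterus replicate 1 or 3, adjusted p up to 0.0988). Hedgehog genes had 1 of 8 higher and 1 lower, against 9.34% and 9.06% of all genes tested. The higher one was Foxf2 and the lower one the effector Gli2 (-0.94).

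Of 8 tested steroid receptor and steroid metabolism genes, 1 was higher and 2 lower. Esr1, the main estrogen receptor of the tract, read 9.99, 9.73, 9.95 and 9.63 in the vagina and 9.82, 9.79, 9.86 and 9.86 in the uterus. The groups overlapped fully and the difference of -0.01 (SE 0.17) was not called (adjusted p = 0.985). Pgr, the progesterone receptor, was close to background in both organs and not called (-0.24, SE 0.18, adjusted p = 0.428). Esr2, estrogen receptor beta, was higher in the vagina at 5.96, 5.81, 5.66 and 5.47, against 4.39, 4.43, 4.69 and 4.60 in the uterus, a difference of 1.20 (SE 0.14) with 2 uterus pools at background. Nr3c1, the glucocorticoid receptor, was above background in no vagina pool and at least 1.37-fold lower there. Its probe was dim in both organs, with means of 4.25 in the vagina and 4.92 in the uterus. This probe passed the filter only through the 4 uterus pools and was measured in 20 of the 26 alternatives. Hsd11b2, which inactivates glucocorticoids, was also lower, with differences of -1.22 among replicates 1 and 2 but -0.18 among 3 and 4, and was not called without vagina replicate 1 or 4 or uterus replicate 1 or 2, adjusted p up to 0.0843.

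Among 39 tested collagen and matrix genes, 7 were higher, 5 were lower and 27 were not called. Col8a2, a network-forming collagen, read 7.72, 8.09, 7.95 and 7.87 in the vagina and 10.43, 10.42, 9.99 and 9.95 in the uterus, and its groups were 4.89-fold apart. Vcan, the proteoglycan versican (-1.64), Fn1, fibronectin (-1.45), Col26a1 (-1.07) and the basement membrane protein Nid2 (-0.60) were also lower in the vagina. Col14a1 (1.76) and Col15a1 (1.45) were higher. So was Col23a1, with differences of 1.50 among replicates 1 and 2 but 2.66 among 3 and 4, and Thbs2, a matricellular thrombospondin, with differences of 1.13 among replicates 1 and 2 but 2.50 among 3 and 4.

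Guidance genes had 3 of 26 higher and 6 lower. Sema3a, a repellent of axons and endothelial cells, read 7.71, 7.43, 7.46 and 7.36 in the vagina and 9.94, 9.79, 9.88 and 9.75 in the uterus. Pools of each organ were close together, and the difference was -2.35 (SE 0.14, adjusted p = 7.69e-09), with -0.69 by its other probe. Slit3, another secreted guidance cue (-1.46), and the ephrin gene Efnb2 (-1.23) were lower. Sema3f was higher (1.39), as was the receptor Epha3 (1.49, with -0.05 and 0.13 by its other probes). Epha5 was above background in no uterus pool and at least 3.07-fold higher, with vagina levels of 5.44, 5.08, 6.93 and 6.97.

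Smooth muscle markers were called higher in 2 of 11 genes and lower in 1, against 9.34% and 9.06% of all genes tested. Actg2, the actin of visceral smooth muscle, read 11.82, 10.07, 10.74 and 10.71 in the vagina and 7.59, 7.02, 7.22 and 6.998 in the uterus. All vagina pools were above all uterus pools, with a difference of 3.63 (SE 0.29), or 12.4-fold. Myh11, smooth muscle myosin, differed by 2.09 (SE 0.32). Des, desmin, was lower at 8.53, 7.25, 7.28 and 7.45 in the vagina, against 9.02, 9.56, 8.60 and 8.75 in the uterus, and vagina replicate 1 lay above the other 3. The summed level of the list ranged from 24028 to 38412 in the vagina and from 23497 to 30418 in the uterus. Of 9 skeletal muscle genes only Mybpc1 was called, against 18.4% of all genes tested. It was lower in the vagina, with differences of -0.75 among replicates 1 and 2 but -2.40 among 3 and 4.

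Markers of endothelium were lower in the vagina in 8 of 11 tested genes, with none higher (median -0.83, -0.89 to -0.51). Their summed intensity was 1558 to 2288 in the vagina and 3360 to 4205 in the uterus. Esam, an endothelial adhesion protein, read 9.23, 8.72, 9.01 and 9.31 in the vagina and 10.01, 10.54, 10.27 and 10.33 in the uterus, with no overlap and a difference of -1.22 (SE 0.16). Cldn5 (-0.99) and Emcn (-0.90) were lower as well. Mesothelial markers were lower in 4 of 6 and higher in none (median -1.56, -1.89 to -0.66), with summed intensities of 171 to 237 in the vagina and 868 to 1462 in the uterus. Besides Upk3b these were Msln, mesothelin (-1.93), at background in 2 vagina pools, Aldh1a2 (-1.89) and Bnc1 (-1.23). The part of vessels and of the outer lining in the other genes lower in the vagina was not tested.

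Markers of urothelium were higher in 5 of 6 genes and lower in 1 (median 1.56, 0.61 to 2.04), with summed intensities of 771 to 1198 in the vagina and 322 to 469 in the uterus. Upk2, a uroplakin of the bladder and urethra lining, read 9.20, 8.82, 8.56 and 8.61 in the vagina and 4.34, 4.48, 4.91 and 4.18 in the uterus. It was at background in 3 uterus pools and 19.9-fold higher in the vagina (adjusted p = 1.81e-10). Upk1a (2.95), Psca (2.04, at background in 3 uterus pools), Gata3 (at least 1.8-fold) and Upk3a (at least 1.49-fold) were also higher. Upk1b, another uroplakin, was lower (-1.34, SE 0.35). The part of urothelial or urogenital sinus cells in the genes higher in the vagina was not tested.

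Leukocyte markers had 1 of 11 genes higher and 3 lower. The higher one was Cd14, a coreceptor for bacterial lipopolysaccharide, at 9.32, 9.43, 9.08 and 8.88 in the vagina and 7.29, 6.35, 6.77 and 6.69 in the uterus, with no overlap. The lower ones were Lyz2, a lysozyme (-0.86, not called without vagina replicate 1, 2 or 3 or uterus replicate 1 or 2 or array 1 of the cKO, adjusted p up to 0.357), the macrophage receptor Csf1r (-0.68, not called without vagina replicate 1 or 2 or uterus replicate 1 or 2, adjusted p up to 0.0673) and Cd52 (-0.51, not called without vagina replicate 1 or 4 or uterus replicate 1 or 2, adjusted p up to 0.0808). Mast cell markers had 1 of 7 higher, which was Hdc, and 1 lower, the receptor gene Kit (-0.57, not called without uterus replicate 1 or 2, adjusted p up to 0.0571). Interferon-induced genes were lower in 3 of 6 and higher in none, namely Rsad2 (-1.75), Oasl2 (-1.68) and Usp18 (-0.65, not called without vagina replicate 1, 3 or 4 or uterus replicate 1 or 2, adjusted p up to 0.128). Of 6 neuronal genes 2 were called, in opposite directions: Stmn2, a tubulin-binding protein of growing axons, was lower (-1.82) and Syt1, a synaptic vesicle protein, was higher, with differences of 1.13 among replicates 1 and 2 but 2.29 among 3 and 4. Sox10, a factor of glia, was above background in no uterus pool and at least 1.59-fold higher. Ret, a receptor of nerve and Wolffian duct cells, was likewise at least 2.8-fold higher, as was Pparg, a nuclear receptor of fat cells and urothelium, at 1.36-fold. Hba-a1, the hemoglobin alpha gene of red blood cells, was lower (-0.96).

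Growth and metabolism genes mostly were not called, which held for all genes tested as well, of which 18.4% were called. Cell cycle genes were lower in 2 of 20 tested and higher in none, the 2 being Ccne1, cyclin E1 (-0.76, not called without vagina replicate 3 or 4 or uterus replicate 1 or 2, adjusted p up to 0.0777), and E2f1 (-0.66, not called without vagina replicate 2 or 4 or uterus replicate 2, adjusted p up to 0.0775). Furthermore, limma called none of 11 cholesterol synthesis genes, 1 of which had an unadjusted p under 0.05, against 3234 of the 11273 genes tested. Of 12 glycolysis genes, 2 were higher and 1 was lower, the glucose transporter Slc2a3 (-1.48, SE 0.22).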

How the data were processed

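Biotin-labelled cRNA of each pool was hybridised to a 1-colour Illumina bead array, per the labels. The deposited table holds linear intensities that the authors had brought to nearly equal array means, with no method given in the sources used here. In a second table, 24 per-sample columns (12 of them signals) cannot be tied to a label by name and were left out. Background therefore came from each array's own intensities. Its level was the mode (68.7 to 90.6) and its SD that of the values under the mode (2.11 to 2.70). Intensities were corrected with normexp in limma 3.58.1 (R 4.3.3) with 16 added as offset, then quantile normalized between arrays and logged to base 2. Probes counted as above background past the level under which 99% of background values lie, which held for 39.4% to 46.3% of the 45281 probes per array. Probes above it on at least 4 of 12 arrays were kept (21018). Of these, 17879 had 1 symbol in the platform annotation, and the brightest stood for its gene. The annotation gave 34885 probes 1 symbol, 18 several and 10378 none, and 78 were not matched to RefSeq by gene ID.

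Group means were fitted by lmFit and eBayes over all 12 arrays, without pairs. Every adjusted p is from limma, two-sided, with Benjamini-Hochberg adjustment over all genes, called under 0.05. The number of arrays limits the precision, and p-values measure the spread between pools. A bound on a fold sets the brighter group's mean against, per array, the higher of the dim probe's own value and the lowest signal above background. Same-numbered vagina and uterus pools deviated together across genes (r = 0.142, 0.117, 0.375 and 0.429 for replicates 1 to 4). Differently numbered pools did so more within replicates 1 and 2 (r = 0.262 and 0.374) and less within 3 and 4 (r = 0.189 and 0.217). Pools across these sets did not (r = -0.332 to -0.201). Whether the numbers pair the pools cannot be told from these values. The fit was tested on simulated data. Named genes were up to 15 per direction with the largest difference, if called and free of overlap between the organs, up to 4 called members of each list per direction, and fixed genes such as Trp63, Isl1 and Hoxa13. Which of these are printed was decided with their values known. The comparison and the lists were chosen with earlier results of these data known. The alternatives tried changed the background correction, normalization, filter, probe choice, samples, sets and pairing.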

Additional observations from a re-analysis of the deposited data

Results flagged for a closer look

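In 10 of the 394 groups of 4 pools tested over the named genes, 1 pool lay apart from the other 3 by Dixon's test, which chance gives in about 1 of 20 groups. In the vagina, replicate 1 was the highest for Des (8.53), Gsta3 (8.20) and Hoxa5 (4.71), replicate 4 the highest for Hoxc9 (4.22), and replicate 2 the highest for Krt7 (9.01). Vagina replicate 2 was also the lowest for Sox10 (4.75) and Cldn5 (5.31). In the uterus, replicate 3 was the highest for Cbr2 (6.42) and Foxq1 (4.67), and the lowest for Igfbp2 (7.57). All 10 genes were called, and each was still called when the pool in question was left out.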

How the results depend on the processing

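Of the 193 called genes named here, 155 were called under every one of the 26 alternatives in which they were measured and none changed sign. Leaving out 1 array gave 1713 to 2122 calls. On the 8 cHet arrays alone, 10639 genes were tested and 1969 called. With replicates 1 and 2 alone, 1252 genes were called, 673 higher in the vagina and 579 lower. An offset of 50 left 246 genes at least 2-fold higher and 144 lower, and no background correction 178 and 94, since both compress the folds of dim genes. Calls on 20 named genes were lost in replicates 1 and 2 alone, among them Hoxa7, Hoxa9, Hoxa13, Sox17 and Mybpc1, and on 15 in 3 and 4 alone, among them Hoxb3, Tbx2, Psca and Upk1b. Calls on 12 were lost without the filter on dim probes, on 11 without quantile normalization, on 10 without background correction and on 8 with the offset of 50, Hoxb6 among those of all but the second. The cause of the lost calls was not tested. Of the 4 genes not called, 3 changed sign around 0 without being called. Esr1 gave 0.0098 without quantile normalization, 0.035 as the mean of its probes, 0.054 in replicates 1 and 2 alone and -0.062 to 0.056 with 1 array left out. Hoxb9 gave -0.00074 with the offset of 50, -0.050 in replicates 3 and 4 alone and -0.088 to 0.053 with 1 array left out, and Wnt7a 0.16 in replicates 1 and 2 alone and -0.24 to 0.061. With the replicate number as a block on the 8 arrays, 2406 genes were called, and no call on a named gene was lost. With the sets (replicates 1 and 2 against 3 and 4) as a block on 12 arrays, 2555 were called. Bead arrays leave genes close to background poorly measured, so that folds near it depend on the background correction. Bounds are given only where 1 organ was above background in no pool.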
